A study of Mus musculus with 2 samples.

Results

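White-like adipocyte nuclei made up 661 of the 29175 barcodes in this study of mouse brown adipose tissue, the heat-producing fat depot. They were selected on their own RNA: each had a transcript of the adipocyte regulator gene Pparg and transcripts of at least 3 of 8 genes, Slc7a10, Trhde, Retn, Ofcc1, Adgrg2, Agt, Cyp2e1 and Gpt2. Each also had at most 10% mitochondrial UMIs and transcripts of at most 1 of 8 marker genes of endothelial cells, fibroblasts, macrophages, muscle and pericytes. A UMI is a molecular barcode that counts 1 captured transcript. The comparison group was the other 20001 Pparg-positive nuclei, which passed the same limits and had transcripts of fewer than 3 of the 8 genes. Excluded barcodes, 4946 in Flox and 3345 in KO, were within the mitochondrial limit but had no Pparg transcript or had transcripts of more than 1 of the 8 marker genes. The levels of the 8 genes therefore describe the choice and are not a finding, and contrasts of the selected nuclei with other nuclei carry no test.

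The series holds 2 single-nucleus RNA libraries of the tissue from mice aged 4 weeks, 1 of genotype Flox and 1 of genotype KO, described in the series design as Nfe2l1(f)-KO. Nfe2l1 encodes a transcription factor that maintains the genes of the proteasome, the cell's main protease for marked proteins. What the Flox allele is, the driver of the deletion, the deleted part of the gene, the sex of the mice and the number of mice behind each library are stated in none of the sources used here. With 1 library per genotype, no difference between the libraries has a replicate check and no test was possible. Intervals are at 95% and cover the error of counting alone.

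White adipocytes store triglyceride in 1 large droplet, build fatty acids from glucose when insulin is high and secrete hormones such as leptin and adiponectin. Brown adipocytes hold many mitochondria and small droplets and burn fatty acids through the uncoupling protein UCP1. Depots of brown fat also hold adipocytes with the white pattern, and cells of both kinds depend on the nuclear receptor PPARG. Fatty acid synthesis runs from citrate through ATP-citrate lyase (Acly), acetyl-CoA carboxylase (Acaca) and fatty acid synthase (Fasn) to the elongases and desaturases, and the transcription factors SREBP1 and ChREBP drive these genes.

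The library labelled Flox held 16145 barcodes with 46528077 UMIs and the library labelled KO 13030 barcodes with 43080725 UMIs, and 99 and 123 barcodes exceeded the mitochondrial limit. The white-like nuclei numbered 378 in the library labelled Flox and 283 in the library labelled KO, with 1344321 and 1172028 UMIs and medians of 3038 and 3625 UMIs per nucleus. The other Pparg-positive nuclei had medians of 2600 and 3035 UMIs. White-like nuclei had fewer mitochondrial UMIs than the others in both libraries, with medians of 0.241% against 0.414% in Flox and 0.678% against 1.08% in KO. The libraries shared 65 barcode sequences, of which none marked a white-like nucleus in both.

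Nfe2l1 went against its label in the white-like nuclei. The nuclei of the library labelled Flox held 119 Nfe2l1 UMIs, 88.5 CPM (interval 73.3 to 106), that is UMIs scaled to the summed UMIs of these nuclei, and those of the library labelled KO held 363, or 309.7 CPM (279 to 343). Nfe2l1 transcripts were found in 22.5% and 65.4% of these nuclei. In the other Pparg-positive nuclei the levels were 130 and 300.1 CPM. A count from the 3' end does not check a deletion that lies elsewhere in the gene, so the labels are kept as names of the libraries throughout.

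White-like nuclei were 3.41% of Pparg-positive nuclei in the library labelled Flox (378 of 11100, Clopper-Pearson interval 3.08 to 3.76) and 2.96% in the library labelled KO (283 of 9562, 2.63 to 3.32). The ratio of the shares, KO over Flox, was 0.869 (0.742 to 1.02). A rule on detected genes takes deeper nuclei more often: the share went from 1.85% of nuclei under 1000 UMIs to 5.84% of those with 6000 or more in Flox, and from 0.597% to 4.21% in KO. With every nucleus thinned to 1000 UMIs, the shares were 1.89% (211 of 11190) and 2.07% (188 of 9077), and the ratio was 1.10 (0.898 to 1.34). The ratio lay on either side of 1 in the 2 counts, and both intervals held 1, so no difference in share was detectable at this depth. Thinning is not the only way to allow for depth: in nuclei of 2000 to 6000 UMIs the ratio was 0.853.

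The rule cut through a sparse range. Of the Pparg-positive nuclei, 9372 in Flox and 8085 in KO had none of the 8 genes, 1207 and 1063 had 1, and 143 and 131 had 2. Just inside the threshold, 97 and 39 nuclei had 3, and 99 and 48 had 4. All 8 genes were found in 7 and 20 nuclei. White-like nuclei of the library labelled KO held more of the 8 genes each: 144 of 283 had 6 or more, against 97 of 378 in Flox. They were also deeper, with a median of 3625 UMIs against 3038 in Flox. The part of depth in this count was not tested, and the count describes the genes of the choice.

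Lists of genes that the rule did not use differed between nuclei with few and with many rule genes. The summed level of 15 genes of white adipocytes was 2153 CPM in Flox and 2834 CPM in KO in nuclei with none of the rule genes, 4401 and 4685 CPM at 2 genes, 7582 and 9084 CPM at 3, and 16554 and 16457 CPM at 8. The summed level of 29 genes of brown adipocytes went the other way, from 17347 and 20049 CPM at none to 13566 and 16282 CPM at 2, 9496 and 11191 CPM at 3, and 2911 and 3668 CPM at 8. From 4 to 7 rule genes the levels had no steady order: the white genes lay between 10623 and 12119 CPM in Flox and between 12496 and 14732 CPM in KO, and the brown genes between 4265 and 6413 CPM and between 5198 and 6753 CPM. Nuclei at the threshold of 3 genes had summed levels between those of the 2 ends. Over all white-like nuclei the white genes summed to 10452 CPM in Flox and 13399 CPM in KO. Most of that sum was Car3 and Cfd, whose levels are given below, so it does not describe the 15 genes evenly.

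**Figure D1:**
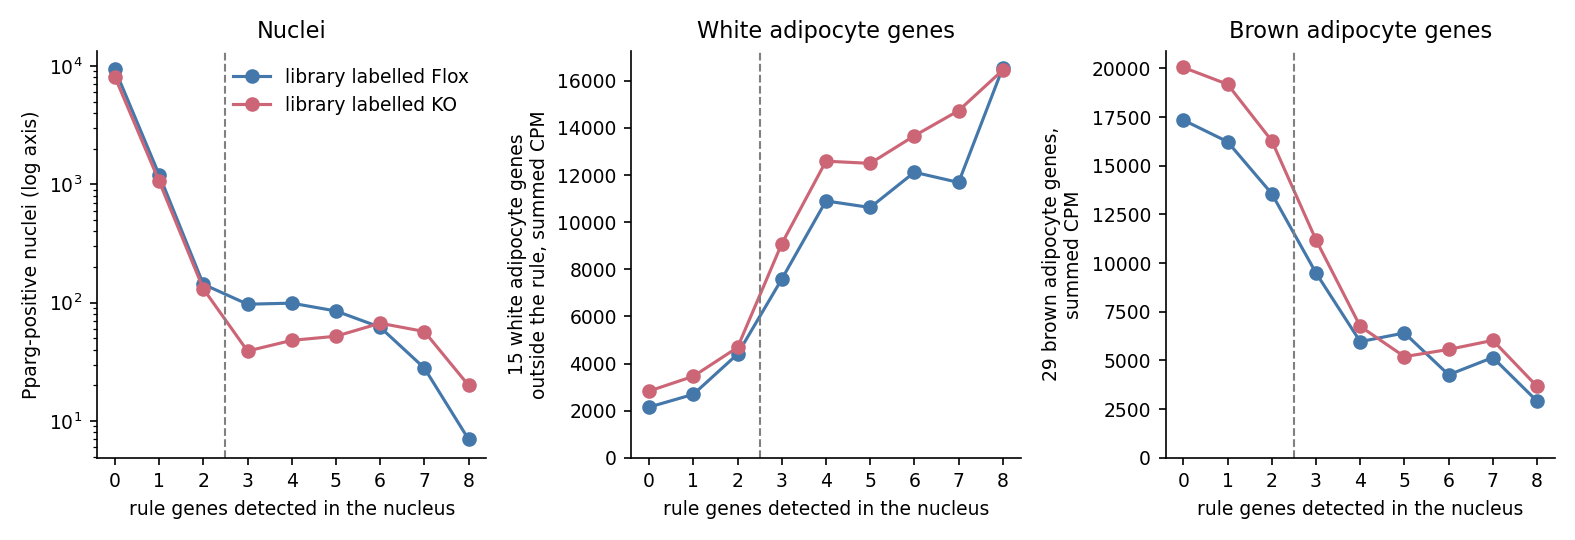
Summed level of 15 white adipocyte genes outside the rule and of 29 brown adipocyte genes (vertical axes, CPM) against the number of the 8 rule genes found in a Pparg-positive nucleus (horizontal axis), with 1 line per library. White genes sit at 2153 and 2834 CPM with no rule gene and at 16554 and 16457 CPM with all 8, and brown genes run the other way. Over all white-like nuclei, most of the white sum was Car3 and Cfd.

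A map of the nuclei built without the 8 rule genes placed most white-like nuclei together. Among the 15 nearest neighbours of a white-like nucleus, the median number that were white-like was 14 in Flox and 15 in KO, against 0 for other Pparg-positive nuclei. At least 8 white-like neighbours were found for 331 of 378 nuclei (87.6%) in Flox and 250 of 283 (88.3%) in KO, and for 0.298% and 0.129% of the others. Of the nuclei with 2 rule genes, just outside the threshold, 13.3% and 9.16% had at least 8 such neighbours, and of those with 3, just inside it, 73.2% and 51.3%. The threshold therefore took in some nuclei with few white-like neighbours and left out 32 and 12 with many.

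The rule genes code for proteins of several kinds. Slc7a10 encodes a carrier of small neutral amino acids and is a known surface marker of white adipocytes. Trhde encodes an enzyme that degrades thyrotropin-releasing hormone, Retn the secreted protein resistin, and Agt angiotensinogen, the precursor of the angiotensins. Adgrg2 encodes an adhesion G protein-coupled receptor, Cyp2e1 a cytochrome P450 and Gpt2 the mitochondrial alanine aminotransferase.

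To read each rule gene in nuclei that it did not choose, the nuclei were selected again by at least 3 of the other 7 genes. In nuclei chosen without it, Slc7a10 was at 624 CPM in Flox and 822 CPM in KO, against 9.43 and 5.95 CPM in the remaining Pparg-positive nuclei, 66.1-fold and 138-fold higher. Trhde was at 651.5 and 766 CPM against 6.07 and 2.41 CPM, 107-fold and 316-fold higher. The 8 genes behaved alike in direction: the lowest ratios were those of Cyp2e1, 23.1-fold and 33.4-fold, and the others lay between 30.2-fold (Gpt2 in Flox) and 671-fold (Ofcc1 in KO). Nuclei with at least 3 of the other 7 genes thus also held more of the gene left out. The 8 genes were chosen together with earlier results of these data known, so these ratios describe that choice and are not independent support.

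**Figure D2:**
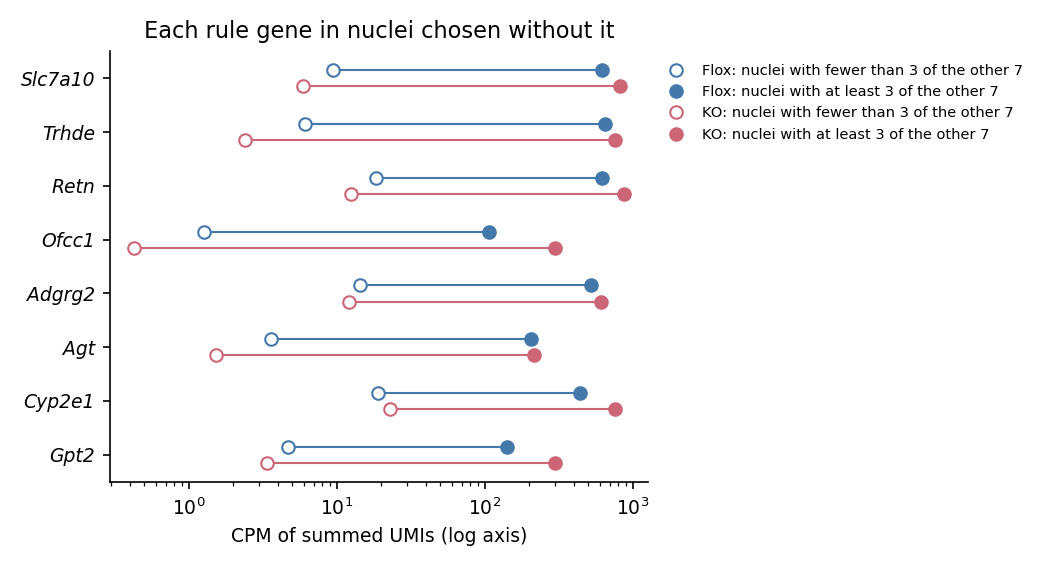
Level of each rule gene (CPM, log axis) in nuclei selected by at least 3 of the other 7 rule genes and in the remaining Pparg-positive nuclei, for each library. Every gene is at least 23.1-fold higher in the selected nuclei of both libraries.

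In the 661 nuclei as chosen, Slc7a10 was found in 83.3% of nuclei in Flox and 83.4% in KO, Retn in 81.5% and 90.1%, Adgrg2 in 78.0% and 85.2%, and Trhde in 63.8% and 64.0%. Cyp2e1 was found in 57.9% and 76.7%, Agt in 40.2% and 46.6%, Gpt2 in 33.6% and 57.6%, and Ofcc1 in 20.9% and 37.1%. Pparg was close in white-like and other nuclei, at 6624 against 6466 CPM in Flox and 5647 against 5371 CPM in KO, and it was also used by the rule.

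The sequence upstream of the start of 2 rule genes is shown because the windows differ in motif content: that of Slc7a10 holds none of the motifs searched and that of Cyp2e1 holds CCAAT. Each is the 250 bases before the annotated start in RefSeq, build GRCm38.p6, 5′ to 3′ on the gene's strand. Slc7a10 lies at chr7:35186135-35186384 on the plus strand and Cyp2e1 at chr7:140763569-140763818 on the plus strand. Capitals mark CCAAT, the letters bound by the factor NF-Y, on either strand.
Slc7a10: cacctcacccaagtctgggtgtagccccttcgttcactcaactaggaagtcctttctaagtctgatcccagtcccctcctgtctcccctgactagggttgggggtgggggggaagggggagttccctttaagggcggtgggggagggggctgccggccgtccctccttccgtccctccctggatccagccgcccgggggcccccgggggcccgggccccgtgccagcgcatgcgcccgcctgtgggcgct
Cyp2e1: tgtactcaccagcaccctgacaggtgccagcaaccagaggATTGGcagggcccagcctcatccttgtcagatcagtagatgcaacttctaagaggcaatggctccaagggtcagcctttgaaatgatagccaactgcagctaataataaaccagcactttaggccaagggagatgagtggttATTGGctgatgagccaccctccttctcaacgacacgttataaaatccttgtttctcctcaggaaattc
Over the windows of all 8 rule genes, CCAAT was found in 1, that of Cyp2e1 with 2 matches (12.5%, against 33.8% of 32851 windows of 27025 genes). The letters CACGTG, an E-box, and TTGCNNAA, a pattern bound by C/EBP factors, were in none of the 8 windows, against 6.02% and 9.56% of all windows. Both strands were searched, matches to different motifs were counted separately where they overlapped, and no match says only that these letters are not in this window.

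White adipocyte genes outside the rule were higher in the white-like nuclei. Over the whole genome, 479 of 11987 genes (4.0%) were at least 2-fold higher in white-like than in other Pparg-positive nuclei in both libraries, and 915 (7.63%) were at least 2-fold lower. With a threshold of 2 rule genes in place of 3, 471 were lower. These shares, 4.0% and 7.63%, are the background of each count of genes 2-fold higher or lower in white-like nuclei of both libraries. Of the 15 white genes, 10 had enough UMIs to be counted, and 5 of the 10 were at least 2-fold higher in both libraries and none lower. The median log2 ratio of the 10 was 1.13 in Flox and 0.77 in KO, against -0.15 and -0.11 over all genes.

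The 5 were Cfd, Car3, Lep, Aldh1a1 and Ddah1. Cfd, the complement protease adipsin, was at 3659 CPM in Flox and 5817 CPM in KO, against 475 and 603 CPM in the others. Car3, a carbonic anhydrase abundant in fat, was at 6035 and 6792 CPM against 1231 and 1835 CPM. Lep, the hormone leptin, was at 53.6 and 52.0 CPM against 16.2 and 21.7 CPM, higher in white-like nuclei of both libraries and near equal between the libraries. Aldh1a1, a retinaldehyde dehydrogenase, was at 164 and 271 CPM against 47.9 and 24.7 CPM, and excluded barcodes held 266 and 263 CPM of it, above the white-like level in Flox and close to it in KO.

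Not every white gene followed. Nnat and Lpgat1 differed little between white-like and other nuclei, with log2 ratios of 0.01 and 0.11 in Flox and -0.03 and 0.06 in KO. Npr3, the clearance receptor for natriuretic peptides, was lower, at 31.2 and 13.7 CPM against 47.8 and 52.1 CPM. The homeobox gene Hoxc8 had 8 and 15 UMIs (5.95 and 12.8 CPM), and Hoxc9, Hoxc10 and Tcf21 had none in the white-like nuclei, which allows up to 2.23 CPM in Flox and 2.56 CPM in KO (3 counts of the total).

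Brown adipocyte genes were lower. Of 28 counted, 16 were at least 2-fold lower in white-like nuclei of both libraries and 1, Adrb3, was higher, beside 7.63% and 4.0% over all genes. The median log2 ratio was -1.25 in Flox and -1.74 in KO. The 16 genes were also at a lower level in white-like nuclei than in excluded barcodes of the same library. How much of the counts of these genes in white-like nuclei is RNA free in the suspension was not tested.

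Among the transcription factors, Prdm16, a regulator of brown adipocyte identity, was at 158 and 127 CPM against 588 and 670.5 CPM. Esrrg, an oestrogen-related receptor that drives mitochondrial genes, was at 798 and 622 CPM against 3196 and 4031 CPM. Ppara, the receptor that drives fatty acid oxidation, had log2 ratios of -1.62 and -1.96, and Ppargc1a, the coactivator of thermogenesis, was at 229 and 227 CPM against 529 and 767 CPM. Ebf2, an early factor of the brown lineage, was at 918 and 1009 CPM against 1883 and 2388 CPM. Cidea, a lipid droplet protein typical of brown fat, was at 382 and 249.99 CPM against 1204 and 1329 CPM.

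The defining gene of brown adipocytes, Ucp1, was scarce everywhere. White-like nuclei held 23 Ucp1 UMIs in Flox and 12 in KO, or 17.1 and 10.2 CPM, against 34.5 and 30.7 CPM in the others and 25.5 and 11.6 CPM in excluded barcodes. Ucp1 in white-like nuclei thus did not exceed the level in excluded barcodes. Most counted genes of the white and brown lists went the way of the white label, with exceptions. The lists were chosen with earlier results of these data known, so they are not independent support for that label. Ucp1, the mark of the labelled tissue, was at no more than 34.5 CPM in any of these groups. Zic1 and Lhx8, factors of the interscapular brown lineage, did not follow the other brown genes: Zic1 was at 17.1 and 14.5 CPM against 21.8 and 15.1 CPM, and Lhx8 at 40.2 and 58.9 CPM against 47.3 and 40.7 CPM. Adrb3, the beta-3 adrenergic receptor of all adipocytes, was at 478 and 688.5 CPM against 90.0 and 119 CPM, higher in white-like nuclei although it stood on the brown list.

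The lists also differed when taken per nucleus. The brown genes took a median of 0.352% of the UMIs of a white-like nucleus in Flox and 0.439% in KO, against 1.61% and 1.97% in other nuclei. The white genes outside the rule took 0.983% and 1.13% against 0.167% and 0.235%. Car3 and Cfd gave most of the summed UMIs of the white genes. Of the white-like nuclei, 70.9% in Flox and 79.5% in KO lay above the 95th percentile of the other nuclei for the white genes, and 31.5% and 41.7% lay below the 5th percentile for the brown genes. No white-like nucleus lay above the 95th percentile of the others for the brown genes in either library.

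**Figure D3:**
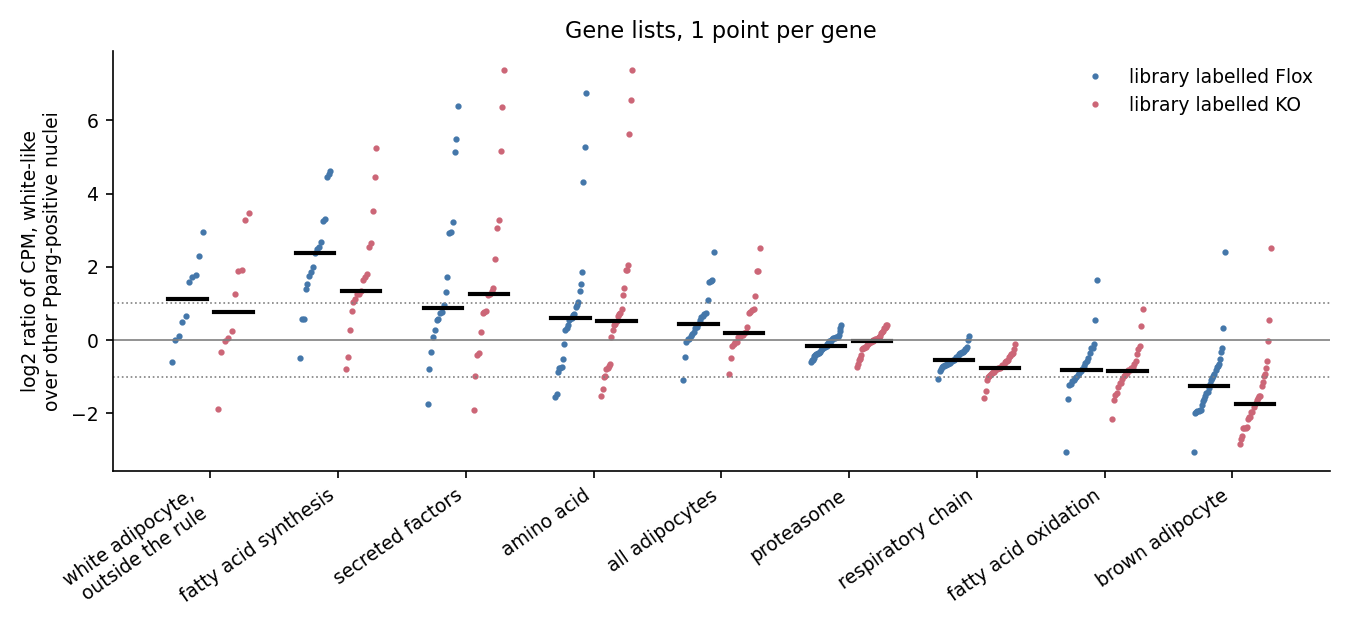
Log2 ratio of white-like over other Pparg-positive nuclei (vertical axis) for the counted genes of each list (horizontal axis), with 1 point per gene and library and the median of each library marked. Fatty acid synthesis has the highest medians among the lists without rule genes (2.38 and 1.33) and the brown adipocyte list the lowest of those plotted (-1.25 and -1.74).

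Genes of fatty acid synthesis were higher in the white-like nuclei, 13 of 17 by at least 2-fold in both libraries and none lower, beside 4.0% and 7.63% over all genes. The median log2 ratio was 2.38 in Flox and 1.33 in KO. Acaca, which makes malonyl-CoA, was at 8019 and 5486 CPM against 814 and 951 CPM. Fasn was at 866 and 495 CPM against 39.6 and 43.3 CPM. Scd1, the delta-9 desaturase, was at 413 and 410.4 CPM against 16.9 and 10.9 CPM, and Me1, malic enzyme, a source of NADPH for synthesis, at 1396 and 520.5 CPM against 60.6 and 23.6 CPM. Acacb, the carboxylase isoform tied to control of fatty acid oxidation, was the exception in both libraries, with log2 ratios of -0.49 and -0.46. Elovl6, an elongase, had a ratio of 0.59 in Flox and -0.78 in KO.

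The transcription factors of the pathway were also measured. Srebf1, the gene of SREBP1, was at 263 and 312 CPM against 99.5 and 131 CPM. Mlxipl, the gene of ChREBP, was at 1666 and 1452 CPM against 1128 and 1209 CPM. Thrsp, a lipogenic regulator, was at 1317 and 1158 CPM against 459 and 558 CPM.

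Downstream of fatty acid synthesis the picture was mixed. Of 13 genes of triglyceride assembly, the acyltransferases Gpam and Gpat3 were at least 2-fold higher in both libraries and none was 2-fold lower. Over all genes the shares were 4.0% and 7.63%. Gpam was at 1634 and 1312 CPM against 257 and 299 CPM. Dgat2, which adds the last acyl chain, had log2 ratios of -0.52 and -0.98, and Dgat1, which catalyses the same step, 0.79 and 0.66.

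Of 16 counted genes of lipolysis and the lipid droplet, 3 stood 2-fold or more above the other nuclei in both libraries and 3 as far below. Over all genes the shares were 4.0% and 7.63%. The higher ones were Plin4, Cidec and Abhd5, the coactivator of the triglyceride lipase, and the lower ones Cidea, Plin5, a droplet protein linked to mitochondria, and Plin3. Cidec, which drives growth of large droplets, was at 1409 and 1595 CPM against 655 and 687 CPM. The lipases themselves, Pnpla2 and Lipe, had log2 ratios between -0.06 and 0.23.

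Fatty acid oxidation ran lower. Of 22 genes, 6 were at least 2-fold lower in both libraries and none higher, beside 7.63% and 4.0% over all genes. The medians were -0.81 and -0.85. The trifunctional protein subunits Hadha and Hadhb had log2 ratios of -1.19 and -1.02 in Flox and -1.44 and -1.27 in KO. Acsl1, which activates fatty acids for either use, was higher, with 1.63 and 0.86. Of 30 nuclear genes of the respiratory chain none passed 2-fold in both libraries, with medians of -0.54 and -0.75, both below the medians over all genes.

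Several secreted factors besides those of the rule were higher. Of 18 counted, 8 were at least 2-fold higher in both libraries, Retn and Agt among them by choice, and 1, Angptl4, was lower. Over all genes the shares were 4.0% and 7.63%. Angptl8, an insulin-induced inhibitor of lipoprotein lipase activity, was at 180.0 and 83.6 CPM against 5.16 and 2.35 CPM. Igf1 was at 237 and 163 CPM against 25.4 and 19.4 CPM, and Rbp4, the retinol carrier of plasma, had log2 ratios of 2.92 and 2.22. Adipoq, the gene of adiponectin, was at 441 and 592 CPM against 299 and 355 CPM, less than 2-fold apart in either library. Angptl4, induced by PPARs and by fasting, was at 73.6 and 102 CPM against 249 and 384 CPM.

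Receptors split. Of 27 counted, 7 were at least 2-fold higher in both libraries and 3 lower, beside 4.0% and 7.63% over all genes. Ghr, the growth hormone receptor, was at 10037 and 9780 CPM against 3314 and 2653 CPM. Tshr, the thyrotropin receptor, was at 759 and 453 CPM against 43.0 and 31.8 CPM, and Ptger3, a prostaglandin E2 receptor that restrains lipolysis, at 426 and 291 CPM against 21.4 and 28.0 CPM. The oestrogen receptor Esr1, with log2 ratios of 1.66 and 1.61, was higher, as was the insulin receptor substrate Irs1, with 2.31 and 1.56. The 3 lower were Adra1a, the alpha-1A adrenergic receptor, Adrb1 and Erbb4, the receptor of neuregulins.

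Amino acid genes were higher in 7 of 25 and lower in 1, beside 4.0% and 7.63% over all genes. Slc7a10 and Gpt2 were among the 7 by choice. The serine synthesis genes Psat1 and Phgdh had log2 ratios of 4.31 and 1.03 in Flox and 5.63 and 1.42 in KO, on 27 and 52 UMIs of Psat1 in white-like nuclei. Slc1a3, a glutamate and aspartate carrier, had 1.86 and 1.92, and Bcat2, the mitochondrial branched-chain aminotransferase, 1.33 and 2.06. Shmt1, a serine hydroxymethyltransferase, was the 1 lower gene, with -1.47 and -1.35. Of 23 genes of glucose use, 1 was at least 2-fold higher in both libraries, near the 4.0% over all genes, and 4 were lower, beside 7.63%. The higher gene was the pyruvate carboxylase gene Pcx, with 1.66 and 1.59, and the lower ones Pdk4, Pkm, Ldhb and Hk1.

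The naming rule took the 15 genes furthest apart each way. Of those higher, 6 are rule genes. The others were Masp1, a protease of the lectin complement pathway, Wfdc21, Trabd2b, an inhibitor of Wnt proteins, Rgs7bp, Unc5c, a netrin receptor, Clmp, an adhesion molecule, the glutathione transferase gene Gsta3, Angptl8 and Slc25a10, the mitochondrial dicarboxylate carrier. Clmp was at 548 and 528 CPM against 15.3 and 6.999 CPM. Masp1 was at 93.7 and 51.2 CPM against 0.896 and 0.0917 CPM, and Trabd2b at 231 and 137 CPM against 3.03 and 2.51 CPM. The log2 ratios of the genes outside the rule ran from 5.08 for Slc25a10 in Flox to 8.91 for Masp1 in KO. That Masp1 ratio rests on 3 UMIs in the other nuclei, with an interval from 7.51 to 11.4. In Flox it was 6.69, on 29 UMIs in the other nuclei.

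The lower genes were Rbfox1, Cdh2, Col27a1, Esrrg, Lgr6, Rarb, Pdk4, Rnf152, Slc27a2, Pitpnc1, Pank1, Lgals4, TUSC3, Prdm16 and Nav2. The ranking asked for at least 100 UMIs in white-like nuclei, so genes nearly absent from them could not be named as lower. The sizes of the higher and lower ratios therefore cannot be compared. Cdh2, N-cadherin, was at 70.7 and 34.1 CPM against 324 and 268 CPM, and Pank1, a pantothenate kinase of coenzyme A synthesis, at 392 and 319 CPM against 1475 and 1749 CPM. The log2 ratios of the lower genes ran from -1.85 for Nav2 in Flox to -3.45 for Lgr6 in KO.

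Markers of other cells were at low levels in the white-like nuclei. Summed over 12 genes each, endothelial markers were at 181 CPM in Flox and 132 CPM in KO, against 4151 and 4606 CPM in excluded barcodes, which include by definition those with more than 1 such marker, and fibroblast markers at 150.3 and 132 CPM against 3145 and 3751 CPM. Macrophage markers summed to 651 and 750.0 CPM, of which Mertk alone gave 495 and 643 CPM, and Fcgr1 was at 0 UMIs in both libraries. Some lists were not lower. Schwann cell markers were at 586 and 582 CPM against 465 and 629 CPM. Of 9 counted, 5 were at least 2-fold above the other Pparg-positive nuclei in both libraries, beside 4.0% over all genes. The sodium channel gene Scn7a gave 304 and 374 CPM of the Schwann sum. Mesothelial markers were at 11.9 and 8.53 CPM against 6.23 and 5.98 CPM. Pericyte and smooth muscle markers, at 295 and 217 CPM, were below excluded barcodes (790 and 688 CPM). They were above the other Pparg-positive nuclei (258 and 210 CPM). The part of these markers in the results was not tested.

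Barcodes with both markers of another cell type are left out by the limit on marker genes, and the share of them with rule genes is given as a background of detection. At least 3 rule genes were found in 1.22% of barcodes with both endothelial markers in Flox and 0.719% in KO, 1.65% and 0.847% of those with fibroblast markers, and 0.885% and 1.11% of those with macrophage markers, at median depths from 1816 to 2776 UMIs. Scores for doublets, droplets that caught more than 1 nucleus, marked 14.3% of white-like nuclei in Flox and 13.8% in KO, against 11.2% and 9.24% of the others. Removing the marked nuclei kept the log2 median of fatty acid synthesis in white-like over other nuclei at 1.97, as a mean of both libraries, against 1.85 with them.

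Between the libraries, white-like nuclei differed in a small share of genes. Of 6915 genes with at least 50 UMIs, 57 (0.824%) had a KO level 2-fold or more above that of Flox and 81 (1.17%) 2-fold or more below it, and at 1.5-fold 303 (4.38%) stood above and 407 (5.89%) below. The median log2 ratio over all of them was -0.003. With every nucleus thinned to 1000 UMIs, 30 genes were 2-fold higher and 29 lower, and with a minimum of 200 UMIs 15 and 12.

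The proteasome list, named for the known targets of NFE2L1, was lower in the library labelled KO. Of 27 genes counted, 7 were at least 1.5-fold lower and none higher, beside 5.89% and 4.38% over all genes. The median log2 ratio was -0.40 in white-like nuclei and -0.42 in the other Pparg-positive nuclei. Psmd14, the deubiquitinase of the proteasome lid, was at 164 CPM in Flox (143 to 188) and at 81.9 CPM in KO (66.3 to 100.03). Psmd1, a scaffold subunit of the base, was at 155 CPM (134 to 177) and 90.4 CPM (74.0 to 109), and Psmd11, a lid subunit, at 155 and 87.0 CPM. The catalytic subunit genes Psmb5 and Psmb6 had too few UMIs to be counted, with 22 and 23 UMIs of Psmb5 and 17 and 17 of Psmb6.

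The difference was also seen in medians per nucleus and at each number of rule genes. Proteasome genes took a median of 0.232% of the UMIs of a white-like nucleus in Flox and 0.178% in KO, and 0.245% and 0.183% in the others. At 3 rule genes their summed level was 2335 CPM in Flox and 1795 CPM in KO, and at 7 rule genes 2685 and 1784 CPM. From 0 to 8 rule genes, the level was lower in the library labelled KO at each number.

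Fatty acid synthesis stood lower in KO than in Flox within the white-like nuclei. Among its 17 genes, 8 were at least 1.5-fold lower and none higher, beside 5.89% and 4.38% over all genes. Of the 17, 15 had a log2 ratio below 0, and in 13 the interval lay below 0. The median log2 ratio was -0.55. In the other Pparg-positive nuclei the median was 0.11, 6 of the 17 were below 0, and the interval lay above 0 for 10 genes and below it for 5. The 2 intervals did not overlap for 12 genes. With 1 library per genotype this difference between the kinds of nuclei could not be tested.

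Acly was at 1041 CPM in Flox (988 to 1097) and at 409 CPM in KO (373 to 447), and was found in 72.8% and 50.2% of white-like nuclei. In the other nuclei Acly was at 178 and 163 CPM. Fasn was at 866 CPM (817 to 917) and 495 CPM (455 to 537), while the other nuclei had 39.6 and 43.3 CPM. Acaca was at 8019 CPM (7868 to 8172) and 5486 CPM (5353 to 5622), and was found in 98.1% and 97.5% of white-like nuclei. Acss2, which makes acetyl-CoA from acetate, was at 678 and 354 CPM, against 188 and 204 CPM in the others. Insig1, which retains SREBP in the endoplasmic reticulum and is itself an SREBP target, was at 109 CPM (92.4 to 129) and 35.8 CPM (25.8 to 48.4). Its log2 ratio of -1.60 was -0.49 when nuclei were thinned to 1000 UMIs.

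Some genes of the pathway departed from this. Me1 was lower in both kinds of nuclei, with log2 ratios of -1.42 in white-like and -1.36 in other nuclei. Scd1 did not differ detectably in white-like nuclei, at 413 CPM (379 to 449) and 410.4 CPM (375 to 449), and was found in 24.6% and 31.1% of them. Srebf1 and Acacb were the 2 genes above 0, with log2 ratios of 0.25 and 0.14. Scd2, with 45 and 13 UMIs, had a log2 ratio of -1.55, which turned to 0.17 when nuclei were thinned to 1000 UMIs.

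**Figure D4:**
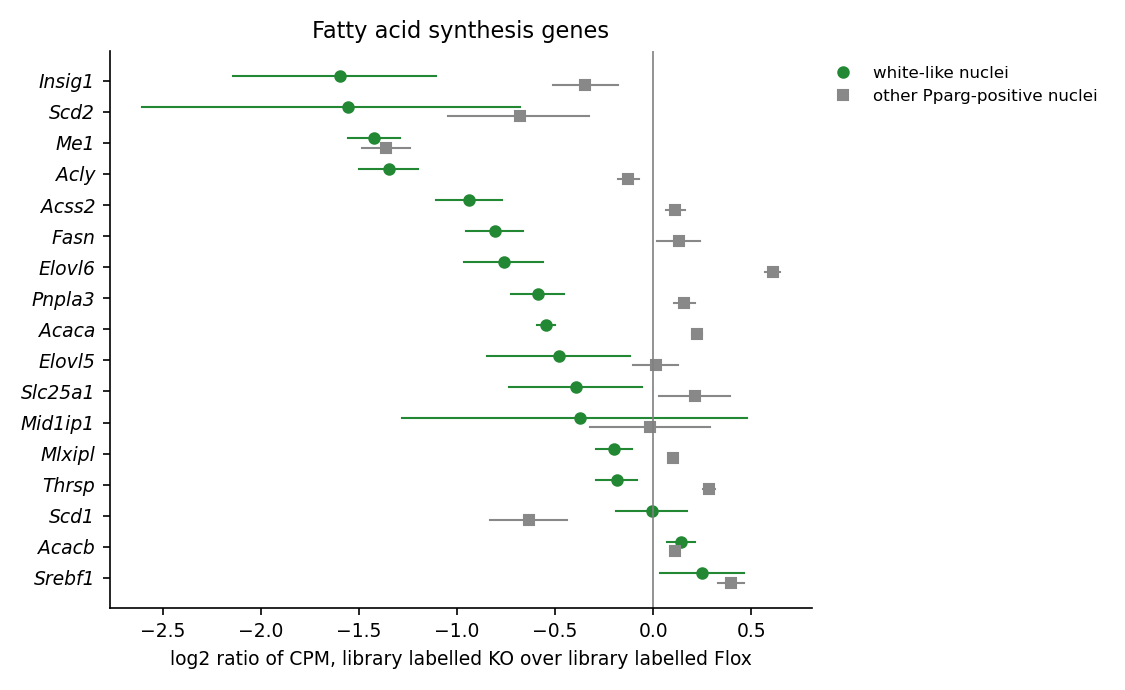
Log2 ratio, KO over Flox, of 17 genes of fatty acid synthesis in white-like nuclei and in other Pparg-positive nuclei, with 95% intervals for counting error. Of the 17, 15 lie below 0 in white-like nuclei and 6 in the others.

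The pathway as a whole varied between white-like nuclei of 1 library. Its 17 genes took a median of 1.82% of the UMIs of a white-like nucleus in Flox, with quartiles of 1.14% and 2.76%, and 1.19% in KO, with quartiles of 0.857% and 1.66%. The other Pparg-positive nuclei had medians of 0.663% and 0.747%. Of the white-like nuclei, 78.0% in Flox and 44.2% in KO lay above the 95th percentile of the other nuclei of their library. The summed level was lower in the library labelled KO at 3 rule genes (16702 and 10450 CPM), at 4 (22613 and 11363 CPM), at 5 (19711 and 16680 CPM), at 6 (20520 and 14414 CPM) and at 7 (20468 and 14079 CPM). At 8 rule genes, with 7 and 20 nuclei, it was 16918 and 17541 CPM. In nuclei with no rule gene it was 6695 and 7516 CPM, the other way round.

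The windows before the starts of Fasn and Insig1 are shown, since both genes had lower levels in KO white-like nuclei and both windows hold letters of the motifs searched. They come from RefSeq, build GRCm38.p6, 5′ to 3′ on the gene's strand, with 250 bases each. Fasn lies at chr11:120824548-120824797 on the minus strand and Insig1 at chr5:28071162-28071411 on the plus strand. Capitals mark CCAAT on either strand (read as CCAAT or ATTGG) and, in Insig1, CACGTG.
Fasn: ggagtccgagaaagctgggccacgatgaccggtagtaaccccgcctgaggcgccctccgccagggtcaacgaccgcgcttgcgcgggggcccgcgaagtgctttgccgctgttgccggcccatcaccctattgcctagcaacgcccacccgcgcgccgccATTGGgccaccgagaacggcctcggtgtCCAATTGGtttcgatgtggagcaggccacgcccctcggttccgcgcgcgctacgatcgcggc
Insig1: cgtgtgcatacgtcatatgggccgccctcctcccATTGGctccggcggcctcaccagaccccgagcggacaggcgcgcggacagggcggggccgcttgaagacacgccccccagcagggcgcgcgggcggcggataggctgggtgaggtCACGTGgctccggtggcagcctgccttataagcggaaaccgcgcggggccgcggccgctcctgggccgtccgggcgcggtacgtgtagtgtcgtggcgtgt
Fasn had 3 CCAAT matches, of which 2 overlap on opposite strands, and Insig1 had 1 CCAAT and 1 CACGTG. Of 19 windows of 15 genes of the list, 12 held CCAAT (63.2%, against 33.8% of all windows), 4 held CACGTG (21.1%, against 6.02%) and 1 held TTGCNNAA (5.26%, against 9.56%). Scd1 and Scd2 had no entry. These are descriptions of letters and not of binding.

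White adipocyte genes outside the rule were mixed between the libraries. Of 8 counted, Cfd and Aldh1a1 were at least 1.5-fold higher in KO and Npr3 and Cd1d1 at least 1.5-fold lower, and the median log2 ratio was 0.07. Cfd was at 3659 CPM in Flox (3558 to 3763) and at 5817 CPM in KO (5680 to 5957), Apoe at 626 and 1022 CPM, and Apoc1, a small apolipoprotein, at 75.9 and 171 CPM. Lep was at 53.6 CPM (41.9 to 67.4) and 52.0 CPM (39.8 to 66.9), not detectably different at this depth. Angptl8 was lower, at 180.0 and 83.6 CPM, and its log2 ratio in the other nuclei was close to that in white-like nuclei, -1.13 against -1.10. Of 17 secreted factors counted, 3 were higher by 1.5-fold or more and 1 lower, beside 4.38% and 5.89% over all genes.

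Of 26 receptor and signalling genes counted, 1 was higher in KO by 1.5-fold or more and 3 lower, which for the higher gene is near the 4.38% over all genes and for the lower ones stands beside 5.89%. Adora1, the A1 adenosine receptor, was at 58.0 and 98.1 CPM. Irs1 was at 1038 CPM (985 to 1094) and 596 CPM (553 to 642), Tshr at 759 CPM (714 to 808) and 453 CPM (415 to 493), and Npr3 at 31.2 and 13.7 CPM on 42 and 16 UMIs. Irs1 had a log2 ratio of -0.05 in the other nuclei, against -0.80 in white-like nuclei.

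Of 16 xenobiotic and retinoid genes counted, 5 stood 1.5-fold or more higher in KO and none lower, beside 4.38% and 5.89% over all genes. Besides Cyp2e1, a rule gene, these were Gsta3, at 110.1 and 197 CPM, Aldh1a1, Ces1f, a carboxylesterase, at 163 and 258 CPM, and Gstm1, at 41.7 and 64.8 CPM. Aldh1a1 was at 164 CPM (143 to 187) and 271 CPM (242 to 303) in white-like nuclei and went the other way in other nuclei, at 47.9 and 24.7 CPM. Genes of the interferon response were lower: of 17 counted, 6 stood lower by 1.5-fold or more and none higher, beside the same 5.89% and 4.38%, with a median of -0.45 in white-like and -0.50 in other nuclei. Iigp1, an immunity-related GTPase, was at 632 and 284 CPM, and Cd274, the ligand of PD-1, at 66.9 and 32.4 CPM.

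The naming rule took the 12 genes furthest apart each way between the libraries. Those higher in the library labelled KO were Nfe2l1, Prr16, Cebpb, Peg3, Ofcc1, Pmepa1, Mtmr14, Ifi27l2a, Apoc1, Btbd8, Selenot and Tmem109, and of these 7 were also above 0 in the other nuclei, 5 of them at 1.5-fold or more. Ofcc1 is a rule gene, so its level in white-like nuclei depends on the choice. In the other nuclei it had only 20 UMIs in Flox and 12 in KO, too few to be counted. Peg3, an imprinted gene of a zinc finger protein, was at 531 and 1328 CPM in white-like nuclei and at 457 and 439 CPM in the others. Prr16 was at 91.5 and 260.2 CPM, and at 14.2 and 6.17 CPM in the others. Cebpb, an early factor of adipocyte formation, was at 37.2 and 98.1 CPM, and at 57.6 and 136 CPM in the others, so it was higher in both kinds of nuclei. Btbd8, on 41 and 74 UMIs, had a log2 ratio of 1.04 that turned to -0.40 with thinning. Thinning also took Ofcc1 from 1.30 to 0.41, Pmepa1 from 1.29 to 0.65, Mtmr14 from 1.19 to 2.72 and Nfe2l1 from 1.80 to 2.93.

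The 12 lower genes included Sorl1, Spire1, Insig1, Enpep, Me1, Acly, Tlcd3b, Cabp4, Angptl8, Psmd14 and Stk40, and all 12 were also below 0 in the other nuclei and 8 of them at 1.5-fold or more. Sorl1, a sorting receptor that promotes insulin signalling in fat, was at 134 CPM (115 to 155) and 41.8 CPM (30.9 to 55.3), against 6.83 and 4.52 CPM in the others. Enpep, aminopeptidase A, which cleaves angiotensin II, was at 87.0 and 29.0 CPM, against 8.28 and 5.26 CPM. The log2 ratio of Sorl1 was -1.67, and -2.85 with thinning.

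**Figure D5:**
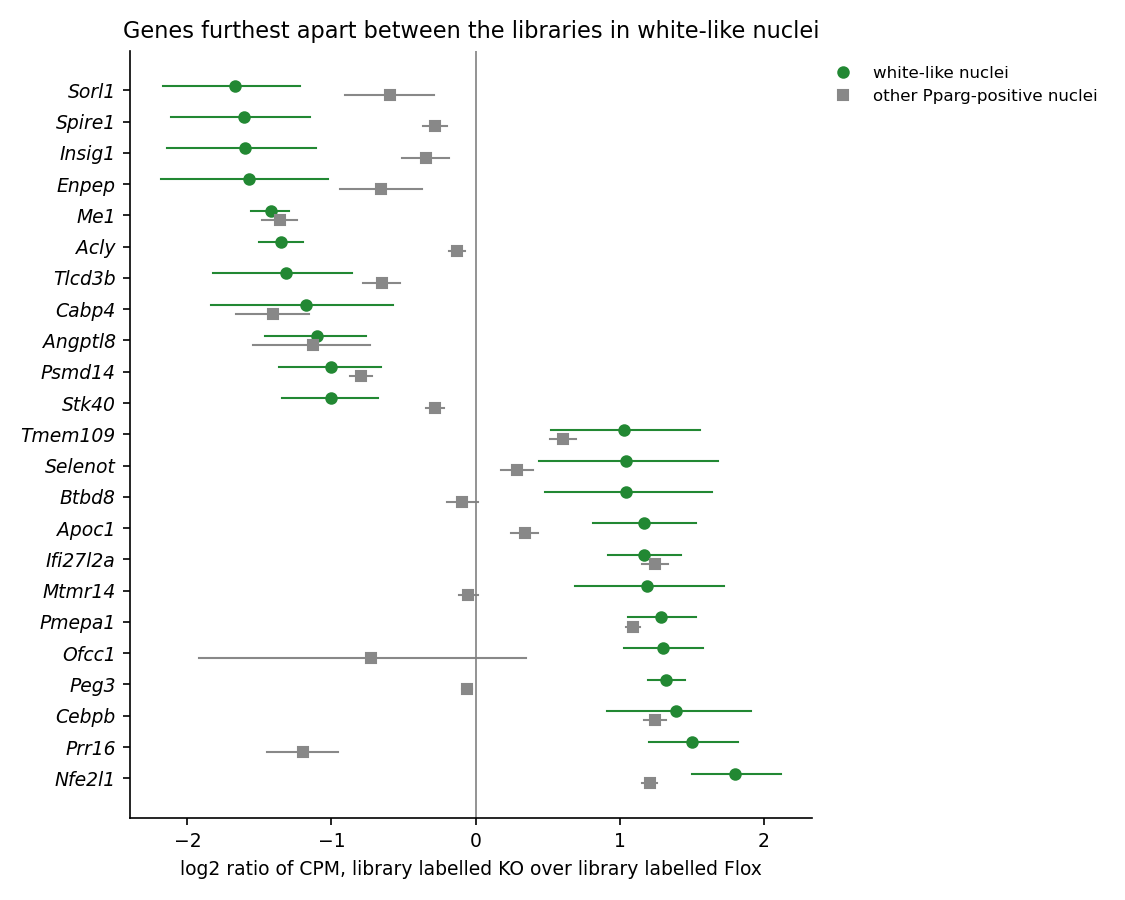
Log2 ratio, KO over Flox, of the named genes in white-like nuclei and in other Pparg-positive nuclei, with 95% intervals for counting error. All lower genes plotted are below 0 in both kinds of nuclei, and 7 of the 12 higher genes are above 0 in both. Ofcc1 is a rule gene.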

How the data were processed

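Single-nucleus 10x 3' v3 libraries of brown adipose tissue, 1 per genotype, were compared, with 8000 nuclei targeted in each. The authors deposited raw UMI counts of 22620 genes for each barcode. Per the file headers they used Cell Ranger 5.0.0, and the submitters' processing notes name build mm10. No source used here gives the annotation, the use of intron reads or the settings that called nuclei. Gene positions came from GENCODE on mm10 and upstream windows from RefSeq on GRCm38.p6.

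The 8 rule genes, the compared nuclei and the gene lists were chosen with earlier results of these data known. UMIs were summed over the selected nuclei and divided by their total (CPM). Log2 ratios had 0.5 UMI added. Genes were counted from 50 UMIs. For KO over Flox these were UMIs of the nuclei compared, over both libraries. For white-like over other nuclei they were UMIs of both kinds of nuclei together in each library. White-like nuclei could therefore hold few UMIs of a counted gene. Intervals are exact Poisson for CPM, Clopper-Pearson for shares and exact binomial for ratios, at 95%. Nuclei are not replicates, so no p-value is given. Doublets were kept, as in the rule. Doublet scores came from Scrublet in scanpy 1.11.5, whose automatic threshold marked 1082 barcodes in Flox and 1 in KO, so the highest 0.8% per 1000 barcodes (2085 and 1358) were marked instead. Neighbours came from 2000 variable genes and 30 principal components without the rule genes.

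Genes were named by rule: the 8 rule genes, Pparg, Ucp1 and Nfe2l1, and up to 3 each way per list. Also named were the 12 each way furthest apart between libraries (at least 100 UMIs, 20 CPM, 1.5-fold and a level not below that of excluded barcodes). The last set was the 15 each way furthest apart between white-like and other nuclei (2-fold in both libraries). Genes of this set also needed at least 100 UMIs in white-like nuclei over both libraries. Mitochondrial, Rpl and Rps, haemoglobin, sex-chromosome and unnamed clone genes were left out of these rankings. Some genes that the rule or the lists hold are not reported here. Other list genes were added as examples after their values were seen. The counting was run on simulated counts for KO over Flox, over 6915 genes. Of genes changed 4-fold, 100% were counted at 2-fold, as were 47% of those changed 2-fold, the threshold itself, and 0.134% of unchanged genes. For 95.7% of unchanged genes the interval contained the true ratio. For white-like over other nuclei in Flox, over 11987 genes, 2.82% of unchanged genes were counted at 2-fold, as were 49% of those changed 2-fold. That run covered 1 library, while the counts of this contrast ask for 2-fold in both. The simulated counts were Poisson, as the intervals assume, with no spread between nuclei or libraries. They therefore do not test the calls or intervals on the real counts.

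Alternatives were at least 2 or 4 rule genes, no marker of other cells, 5% mitochondrial UMIs, marked doublets removed, thinning to 1000 UMIs, the mean CPM per nucleus, TMM factors (edgeR 4.0.16), totals that leave out mitochondrial genes and the 20 most abundant ones, minimums of 20 and 200 UMIs, and a filter against free RNA. A minimum of 8 white-like neighbours and nuclei of 2000 to 6000 UMIs were added after seeing the data. Scripts ran in R 4.3.3 and in Python 3.11.15 with pandas 2.3.3, scikit-learn 1.9.0, NumPy 2.4.6 and matplotlib 3.10.9, and exact intervals used SciPy 1.17.1.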

Additional observations from a re-analysis of the deposited data

Results flagged for a closer look

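Some results pointed 1 way in the white-like nuclei and the other way in the other Pparg-positive nuclei, in log2 ratios of KO over Flox. The difference was not tested in any of them, since each genotype has 1 library. The median over 17 genes of fatty acid synthesis was -0.55 in white-like and 0.11 in other nuclei. Elovl6, the elongase of long-chain fatty acids, had -0.76 and 0.61. Prr16, a gene known for raising cell size, had 1.504 and -1.20, and Aldh1a1, a retinaldehyde dehydrogenase, 0.73 and -0.95. Hbb-bs, a haemoglobin gene of red blood cells, had -0.92 and 1.14. Hbb-bs was at 52.1 CPM in Flox and 27.3 CPM in KO in white-like nuclei, and at 192 and 854 CPM in excluded barcodes.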

How the results depend on the processing

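Over 14 alternatives, 103 results gave 1373 alternative values. Of 1288 log2 values, 33 changed sign. For single genes, the minimums of 20 and 200 UMIs and the filter against free RNA only keep or drop a gene. Such values repeat the main ones and could not change, so the 33 of 1288 is not a measure of stability. The share of white-like nuclei was 3.41% in Flox and 2.96% in KO. It was 2.53% and 2.55% with at least 4 rule genes, 4.69% and 4.33% with at least 2, 1.89% and 2.07% after thinning to 1000 UMIs, and 2.98% and 2.61% with at least 8 white-like neighbours. The ratio of shares went from 0.869 to 1.10 with thinning, and was 1.008 with at least 4 rule genes and 0.853 in nuclei of 2000 to 6000 UMIs. Genes at least 2-fold higher in KO (57) numbered 30 with thinning, 146 from 20 UMIs, 15 from 200 UMIs and 37 with the filter against free RNA, and those lower (81) numbered 29, 277, 12 and 42. Genes 2-fold lower in white-like than in other nuclei (915) numbered 471 with at least 2 rule genes. The proteasome median of -0.40 was -0.56 with thinning. The brown list, at -1.50 as a mean of both libraries, was -0.39 with the filter against free RNA, which by construction leaves out genes that are low in white-like nuclei, and -1.87 in nuclei of 2000 to 6000 UMIs. Btbd8 (1.04) turned to -0.40 and Scd2 (-1.55) to 0.17 with thinning. The cause of the other shifts was not tested. The fatty acid synthesis median of -0.55 stayed between -0.88 and -0.44 over the alternatives run. No paired analysis was possible because each genotype has 1 library. Depth limits genes with few UMIs: Npr3, on 42 and 16 UMIs, had a log2 ratio of -1.17 with an interval from -2.12 to -0.33.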

Other observations

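Of 12 glucocorticoid-responsive genes, 2, Zbtb16 and Dusp1, were at least 2-fold higher in white-like nuclei of both libraries and none lower, beside 4.0% and 7.63% over all genes, with list medians of 0.31 and 0.36. Zbtb16, a transcription factor gene induced by glucocorticoids, was at 2066 CPM in Flox and 2341 CPM in KO, against 1012 and 1102 CPM in other Pparg-positive nuclei. Fkbp5, a chaperone gene induced by the same receptor, was at 1277 and 1945 CPM against 658 and 785 CPM. Nr3c1, the receptor itself, was at 542 and 556 CPM against 299 and 305 CPM. Among single genes chosen after their values were seen, Col4a1, a collagen of basement membranes, was at 388 and 359 CPM against 157 and 141 CPM, and Col4a2, another, had log2 ratios of 0.95 and 0.80, under 2-fold. The nuclear receptor partner Rxra had log2 ratios of 1.01 and 1.495. Of the factors related to NFE2L1, Bach2 was at 107 and 125 CPM in white-like nuclei and at 126 and 49.3 CPM in the others, and Nfe2l2 at 225 and 195 CPM against 164 and 163 CPM.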
